A study of Caenorhabditis elegans with 24 samples.

Results

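The major sperm protein genes were taken as all genes whose WormBase name begins with msp-, found from the gene ID. The annotation gives this name to 35 genes, 31 protein coding and 4 pseudogenes, and 31 of them were measured in at least 1 of 2 expression tables, which together hold 14652 genes. These 31 are 29 protein coding genes and the pseudogenes msp-71 and msp-52. The nuclei table holds all 31, the auxin table holds 30 (all but msp-63), and every one of them passed the filter on low values, which asked for 1 CPM (a read count divided by the adjusted library size) or more in 25% or more of a table's libraries. The coding genes msp-32 and msp-74 and the pseudogenes msp-42 and msp-37 were not analysed here.

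RNA was sequenced in 24 libraries of Caenorhabditis elegans hermaphrodites, 3 in each of 8 groups. In the auxin table every library came from whole animals of strain JTL642, which carries daf-2(e1370) on chromosome III, ljt3[hsf-1::degron::gfp] on chromosome I and the transgene ieSi38 on chromosome IV. The daf-2(e1370) allele reduces insulin/IGF-1 signaling, and ieSi38 makes TIR1::mRuby from the sun-1 promoter, so that auxin degrades HSF-1, a heat shock transcription factor, in the germline. Animals were kept on 1 mM auxin for 88 h from egg lay until the animals were gravid, or for 16 h from the young adult stage, and each auxin group had EtOH controls (0.25%) kept for as long. In the nuclei table, young adults of JTL642 (daf-2) and of JTL621 (WT) gave germline nuclei, isolated after light fixation, and whole worm lysates. JTL621 carries the same hsf-1 degron allele and ieSi38, with unc-119(ed3) on chromosome III in place of daf-2(e1370). Each library is made from many pooled worms, and the study calls the libraries of a group biological replicates. Whether they came from separate cultures is not given in the labels, and p-values measure the spread between these samples.

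Major sperm proteins are small, abundant proteins of nematode sperm. They assemble into filaments that drive the crawling of these amoeboid cells, the part played by actin in other crawling cells, and they are packed into fibrous bodies while spermatocytes develop. Released from sperm, they also act as a signal that starts oocyte maturation and contraction of the gonadal sheath. Hermaphrodites make sperm late in larval life and then turn to oocytes for the rest of adulthood, and msp genes are transcribed in the germ cells that become sperm.

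The 35 genes lie in 5 blocks, taken here as runs with gaps of at most 200 kb, on WBcel235 chromosomes II (15 genes) and IV (20 genes). All 35 have 1 exon and no intron, and 28 have an exon of exactly 384 bases, so that levels of most members can be set beside each other. The first block on chromosome II runs from 4785898 to 5200180 and holds 12 genes, from msp-3 to msp-50. The second runs from 5797065 to 5810330 with msp-63, msp-142 and msp-64. On chromosome IV a block from 5055631 to 5316906 holds 10 genes, among them msp-19, msp-57 and msp-59, a block from 9689015 to 9895014 holds 7 (msp-76, msp-79, msp-78, msp-81, msp-10, msp-56 and msp-77), and a block from 10095433 to 10144175 holds msp-36, msp-38 and the pseudogene msp-37. Members are near-identical copies, and the authors shared a read that maps to several places between them as fractions. Counts of members that moved together are therefore not counts of independent genes, and the split between paralogs is uncertain. Of the measured members, 4 also overlap another gene. These are msp-31 inside aagr-2 on the same strand, msp-33 with gst-9 and msp-38 with dhs-12 on opposite strands, and msp-45 with srb-13 on the same strand. The libraries are directional, but the counting settings that the study states name no strand option. Overlap was taken here from whole gene spans, introns included. How far reads of such pairs were shared was not tested, and srb-13 was measured in neither table.

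The depth of each library was worked out from the steps between its low values. In units of 1e6 reads it was 20.9 to 38.02 in the auxin table and 13.9 to 28.9 in the nuclei table, where nuclei libraries had 13.9 to 19.3. The values are log2 CPM on a library size that the authors adjusted, and the unlogged values of a library summed to 824844 to 1008434 CPM in the auxin table but to 1236882 to 2688300 CPM in nuclei and 424276 to 645863 CPM in worms. A level in nuclei and a level in worms thus stand on library sizes that were stretched by different amounts. The tables were normalized separately, and no test crosses them. The fewest reads for all msp genes together were 1236, in EtOH 16 h library 2, and the most were 64642, in EtOH 88 h library 1.

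In the auxin table the msp genes were low at 16 h and higher at 88 h, and they differed widely between libraries of one group. Summed over the 30 genes, auxin 88 h animals had 811, 558 and 432 CPM, against 1716, 643 and 629 CPM in EtOH 88 h animals. Auxin 16 h animals had 279.7, 73.5 and 119 CPM, against 421, 48.1 and 193 CPM in EtOH 16 h animals. Library 1 of each group was the highest of its group, and at 16 h library 2 was the lowest under both auxin and EtOH. As a share of the unlogged table, msp genes made up 0.0452% to 0.0883% in auxin 88 h, 0.0659% to 0.1702% in EtOH 88 h, 0.00814% to 0.0316% in auxin 16 h and 0.00516% to 0.0511% in EtOH 16 h animals. In whole animals, fewer cells of a type and less RNA per cell cannot be told apart.

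**Figure D1:**
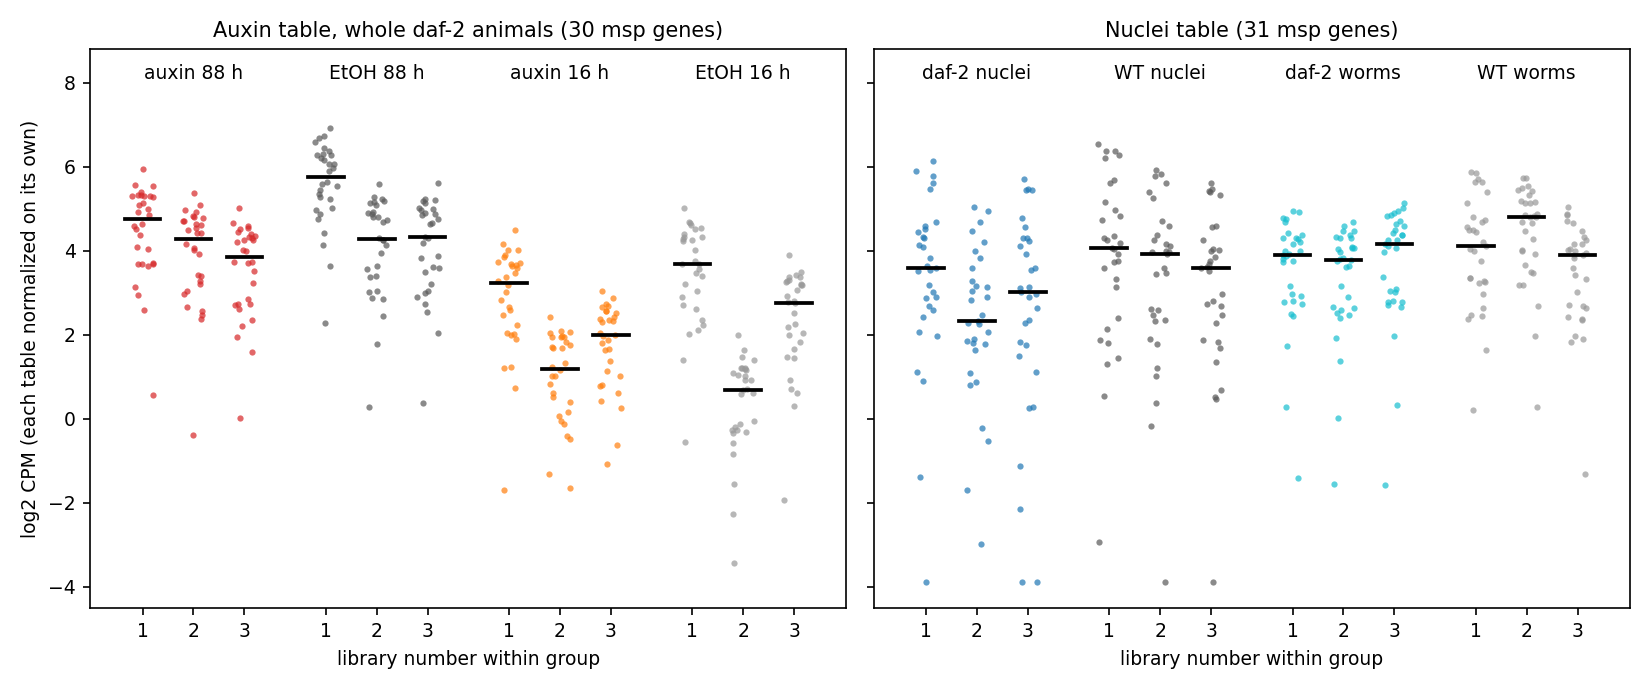
Each point is the log2 CPM of 1 msp gene in 1 library and each bar is the median over the msp genes, with libraries grouped by condition in the auxin table on the left (30 genes) and the nuclei table on the right (31 genes). In the auxin table most members are high or low in the same libraries, and the median is 0.70 in EtOH 16 h library 2 and 5.77 in EtOH 88 h library 1, and points at -3.89 in the nuclei table are genes with 0 reads.

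The most abundant member of the auxin table was msp-19. It had 61.8, 41.5 and 32.5 CPM in auxin 88 h animals, against 121, 48.6 and 48.8 CPM in EtOH 88 h animals, and 22.5, 5.35 and 8.31 CPM in auxin 16 h animals, against 32.4, 3.96 and 14.97 CPM in EtOH 16 h animals. It was the highest member in all 12 libraries of the table, with 6.97% to 8.24% of the family sum. On the scale of CPM per kb of exon, averaged over the table, msp-19 had 95.9, followed by msp-59 with 75.2, msp-57 with 75.02 and msp-40 with 71.4. The difference between msp-59 and msp-57 is far below the spread of either gene between libraries. The next in order of mean log2 CPM, msp-79, had 62.3 CPM per kb, with msp-78 (62.8), msp-77 (62.3) and msp-76 (61.3) beside it.

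The lowest members of the auxin table by mean log2 CPM were msp-64, msp-49 and the pseudogene msp-71, with 13.3, 9.96 and 2.66 CPM per kb, beside 12.6 CPM per kb for msp-38. The pseudogene msp-71 had 1.48, 0.77 and 1.02 CPM in auxin 88 h animals, against 4.85, 1.21 and 1.302 CPM in EtOH 88 h animals, and 0.31, 0.40 and 0.47 CPM in auxin 16 h animals, against 0.68, 0.09 and 0.26 CPM in EtOH 16 h animals. Its level at 16 h rests on few reads. The other pseudogene, msp-52, reached 30.8 CPM per kb, within the range of the coding members.

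To ask whether loss of HSF-1 from the daf-2 germline changed msp expression, auxin was compared with EtOH at each time with limma over all 12634 genes kept. Every library carries the degron and TIR1, so loss of HSF-1 and auxin itself cannot be told apart. The study removed genes that respond to auxin treatment by an earlier list, which was not done here. No msp gene passed an adjusted p of 0.05 at either time, and none reached an unadjusted p of 0.05 (limma). Of all genes tested, 0.103% passed at 88 h and 0.0792% at 16 h (13 and 10 genes), and 5.95% at 88 h and 4.43% at 16 h had an unadjusted p under 0.05. At 88 h, 29 of 30 msp genes were lower with auxin, with a median log2 difference of -0.63 against -0.02 over all genes tested. At 16 h, 24 of 30 were lower, with a median of -0.25 against 0.01 over all genes tested.

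For msp-19 the log2 difference between auxin and EtOH was -0.60 ± 0.71 (SE) at 88 h and -0.31 ± 0.71 (SE) at 16 h, with an adjusted p of 0.992 at 88 h and 0.999988 at 16 h (limma). For msp-59 it was -0.64 ± 0.71 (SE) at 88 h and -0.31 ± 0.71 (SE) at 16 h. These standard errors are larger than the differences, and the values do not show that msp levels were alike with and without auxin. The largest fall at 88 h was that of msp-38, by 1.13 ± 0.58 (SE) on the log2 scale (adjusted p = 0.869, limma), a gene named after its values were seen. It had 6.02, 5.16 and 2.99 CPM in auxin 88 h animals, against 17.5, 7.39 and 7.48 CPM in EtOH 88 h animals. This was the only member whose groups did not overlap at 88 h, where 5.49% of all genes tested were lower without overlap. The gene on its other strand, dhs-12, had 35.3, 32.7 and 32.6 CPM in auxin 88 h animals, against 40.3, 39.8 and 37.0 CPM in EtOH 88 h animals, also lower in each auxin library, and its part in the msp-38 value was not tested.

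Set side by side by library number, most msp genes moved in the same direction within a number, and that direction differed between numbers. At 88 h the median over members of auxin minus EtOH was -1.08 for the libraries numbered 1, -0.20 for those numbered 2 and -0.53 for those numbered 3, and 30, 24 and 28 of 30 members were lower with auxin. At 16 h it was -0.60 for number 1, 0.58 for number 2 and -0.68 for number 3. All 30 members were lower with auxin in number 1 at 16 h and 28 were lower in number 3, but 28 of 30 were higher in number 2. For msp-19 the difference at 16 h ran from -1.14 to 0.38 as each library was left out in turn, so its sign depends on the libraries used. The change at 88 h minus the change at 16 h passed for 0 msp genes, as for 0 of all 12634 genes (0%, limma), and no msp gene reached an unadjusted p of 0.05, against 1.91% of all genes tested. Its median over the msp genes was -0.33, and it was -0.28 ± 1.01 (SE) for msp-19 and -0.33 ± 1.01 (SE) for msp-59.

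**Figure D2:**
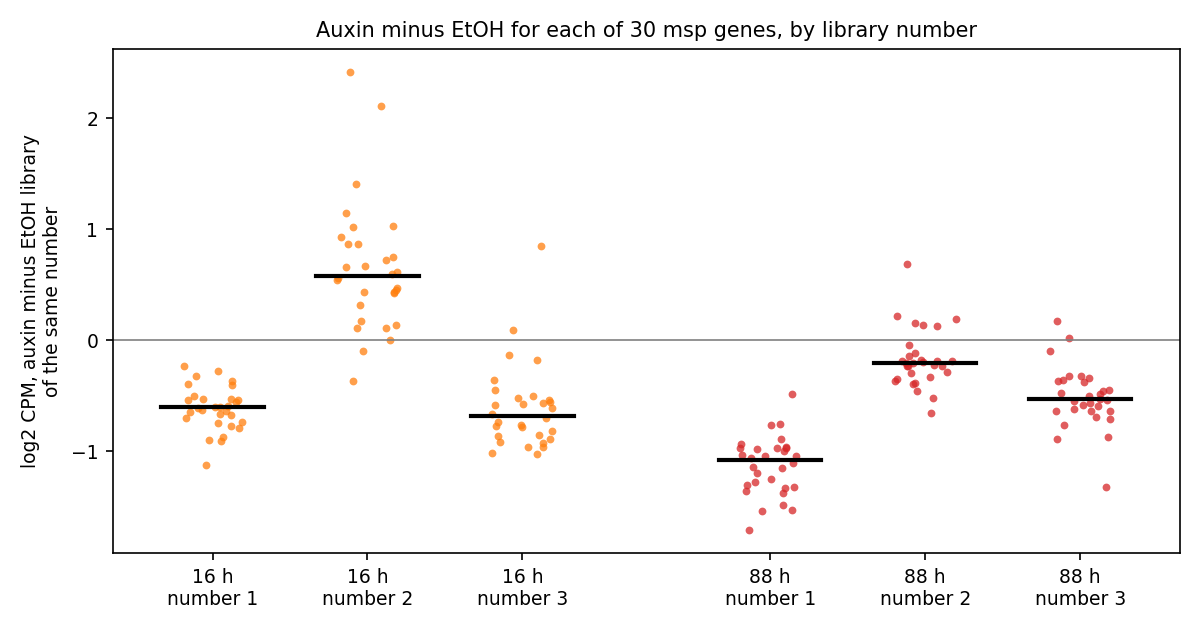
Each point is 1 of 30 msp genes and shows its log2 CPM in the auxin library minus that in the EtOH library of the same number, with the median as a bar, for 16 h and 88 h. The medians are -0.60, 0.58 and -0.68 at 16 h and -1.08, -0.20 and -0.53 at 88 h, so libraries numbered 2 at 16 h go the other way from the rest.

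In the auxin table the spread between libraries of one group was larger for msp genes than for the typical gene. The median SD of log2 CPM over msp genes was 0.47 in auxin 88 h, 0.87 in EtOH 88 h, 0.99 in auxin 16 h and 1.56 in EtOH 16 h animals. Over all genes of the table it was 0.18, 0.19, 0.17 and 0.19 in the same groups. In the nuclei table the msp spread was larger in WT worms, near equal in daf-2 nuclei and smaller in WT nuclei and daf-2 worms. There the median SD over msp genes was 0.68 in daf-2 nuclei, 0.44 in WT nuclei, 0.25 in daf-2 worms and 0.54 in WT worms, beside 0.68, 0.59, 0.36 and 0.45 over all genes. In EtOH 16 h animals all 30 members had the order library 1, then 3, then 2, and library 1 exceeded library 2 by a median of 3.07 on the log2 scale, with a range of 2.19 (msp-10) to 4.39 (msp-64). In auxin 16 h animals 29 of 30 members had the same order, the exception being msp-71, and library 1 exceeded library 2 by a median of 1.96. In EtOH 88 h animals all 30 members were highest in library 1, by a median of 1.498 over library 2 and 1.47 over library 3, and libraries 2 and 3 differed by a median of only 0.03. In auxin 88 h animals all 30 were again highest in library 1, by a median of 0.57 over library 2 and 0.92 over library 3.

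The comparison of EtOH controls at 88 h with those at 16 h sets gravid animals kept on EtOH from egg lay beside adults kept on EtOH from the young adult stage. The study states egg laying as the way of synchronizing for auxin from egg lay, and names alkaline hypochlorite as its other way. Age, length of exposure and any difference in synchronizing cannot be told apart here. All 30 msp genes were higher at 88 h, by 2.16 (msp-10) to 2.98 (msp-64) on the log2 scale, with a median of 2.49 against 0.03 over all genes tested. In all 30 the groups did not overlap, where 21.7% of all genes tested were higher without overlap. Of the 30, 7 passed an adjusted p of 0.05 (limma), where 9.89% of all genes tested passed in either direction and 7.61% were higher. These were msp-38, msp-71, msp-10, msp-50, msp-113, msp-81 and msp-76. All 30 had an unadjusted p under 0.05, against 33.2% of all genes tested. The other 23 had an adjusted p of 0.0503 to 0.0752, so the line at 0.05 runs through a narrow range.

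Among those that passed, msp-38 had 17.5, 7.39 and 7.48 CPM in EtOH 88 h animals, against 4.05, 0.81 and 1.63 CPM in EtOH 16 h animals, a log2 difference of 2.50 ± 0.58 (SE, adjusted p = 0.0325, limma). msp-10 had 40.99, 17.5 and 14.8 CPM in EtOH 88 h animals, against 10.6, 2.33 and 4.78 CPM in EtOH 16 h animals (2.16 ± 0.56 SE, adjusted p = 0.0402, limma). Both genes were higher in every 88 h library than in any 16 h library, although library 1 alone carries much of the height at 88 h. msp-50 had 32.4, 8.13 and 6.61 CPM in EtOH 88 h animals, against 4.70, 0.84 and 1.89 CPM in EtOH 16 h animals (2.62 ± 0.70 SE, adjusted p = 0.0437, limma). msp-113 had 66.5, 26.8 and 24.9 CPM in EtOH 88 h animals, against 16.2, 2.23 and 7.64 CPM in EtOH 16 h animals (2.44 ± 0.66 SE, adjusted p = 0.0441, limma). msp-71 rose by 2.95 ± 0.72 (SE, adjusted p = 0.0357, limma), from the lowest levels of the family. The abundant msp-19 was higher by 2.41 ± 0.71 (SE) and missed the threshold (adjusted p = 0.0528, limma).

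The count of 7 rests on which libraries are used. Without EtOH 16 h library 1 all 30 passed, and 0 passed without EtOH 16 h library 2 or 3 or without EtOH 88 h library 1 or 3, and 2 without EtOH 88 h library 2. The median log2 difference of the msp genes stayed between 1.64 and 3.19 in these 6 fits, while calls over all genes ran from 0 to 2359. In the auxin groups, compared as a description, all 30 members were also higher at 88 h, by a median of 2.11. How all genes moved between the auxin groups was not worked out.

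Other sperm genes were read from lists of genes that are no members. The ssp and msd genes, which encode small proteins with the MSP fold, had a median of 2.29 at 88 h against 16 h in EtOH, and 1 of 13 rose. It was ssp-10, with 32.2, 17.05 and 16.2 CPM in EtOH 88 h animals, against 8.81, 1.97 and 3.28 CPM in EtOH 16 h animals. Of 15 genes for fibrous bodies and spermatid assembly, 9 rose and none fell, with a median of 1.95. Among them spe-15, which encodes an unconventional myosin, had 75.02, 44.4 and 43.7 CPM in EtOH 88 h animals, against 22.6, 13.5 and 16.4 CPM in EtOH 16 h animals (log2 difference 1.62 ± 0.28 SE, adjusted p = 0.0193, limma). spe-18, needed for fibrous bodies, rose by 2.62 ± 0.50 (SE, adjusted p = 0.0218, limma). Of 16 genes for sperm activation and fertilization, 4 rose (spe-51, spe-47, spe-49 and spe-41) and none fell, with a median of 2.02.

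The sperm fate and transcription list, also a sperm list, did not rise in the same comparison. None of its 19 genes passed, with a median of -0.01 and 9 of 19 higher. Germ cell lists outside sperm moved little too. None of 17 oocyte genes passed, with a median of -0.10, and 1 of 14 germ cell genes fell. Among the 19 genes of the oocyte and sheath that answer MSP signals, 3 rose. Lists of somatic genes differed. Of 12 cuticle and hypodermis genes 6 rose, with a median of 3.85, and of 12 body wall muscle genes 9 rose, with a median of 0.97. Of 11 intestine and yolk genes 2 rose, with a median of -0.09, and of 11 neuron genes 1 rose, with a median of 0.37. The collagen gene col-12 had 383, 69.2 and 121 CPM in EtOH 88 h animals, again highest in library 1. By library, the median level of the cuticle list from its mean in the table was 3.78 in EtOH 88 h library 1 and -2.79 in EtOH 16 h library 2, the same libraries in which the msp genes were at 2.49 and -2.69. All msp genes together had 0 values at the floor of the auxin table, and the cuticle list had 9. The part of the cuticle and muscle values in the msp difference was not tested.

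**Figure D3:**
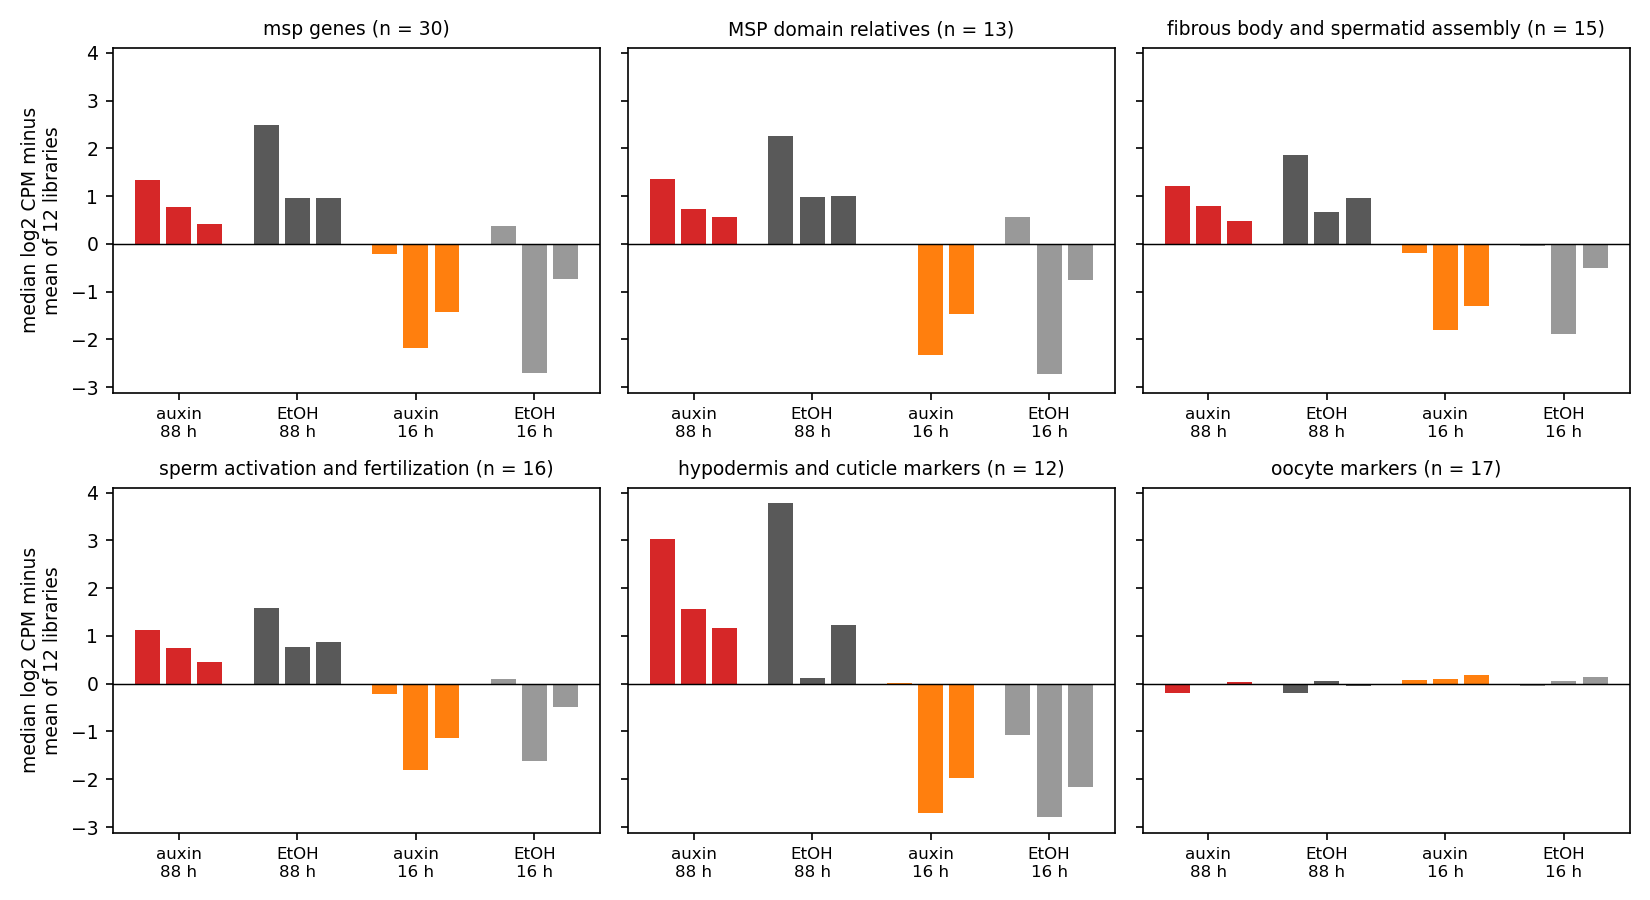
Bars show, for each of 12 libraries of the auxin table (numbers 1 to 3 left to right in each group), the median over the genes of a list of log2 CPM minus the gene's mean over the table. The msp genes, the other sperm lists shown and the cuticle list are highest in EtOH 88 h library 1. They are lowest in a 16 h library of number 2. The msp genes are at 2.49 in EtOH 88 h library 1 and -2.69 in EtOH 16 h library 2. Oocyte genes stay between -0.20 and 0.18.

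In the auxin comparisons none of the sperm lists had a gene past the threshold. The median of the ssp and msd genes was -0.44 at 88 h and -0.30 at 16 h, that of the fibrous body list -0.24 at 88 h and -0.17 at 16 h, and that of the activation list -0.19 at 88 h and -0.27 at 16 h. That of the sperm fate and transcription list was -0.08 at 88 h and 0.07 at 16 h.

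In the nuclei table the order of the members differed from that in the auxin table. The highest on the scale of CPM per kb, averaged over the table, were msp-77 (114), msp-79 (108), msp-78 (105), msp-81 (101), msp-31 (100.2) and msp-40 (99.0), and msp-19 had 62.4. The most abundant, msp-77, had 54.9, 25.9 and 43.6 CPM in daf-2 nuclei, against 83.3, 55.0 and 44.2 CPM in WT nuclei, and 30.6, 22.1 and 30.97 CPM in daf-2 worms, against 58.2, 45.4 and 33.1 CPM in WT worms. The next in order, msp-79 and msp-78, overlap it in every group. The 5 highest members took 46.7% to 50.2% of the family sum in nuclei libraries, against 28.99% to 39.3% in worm libraries.

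The lowest were msp-38 (10.6 CPM per kb), msp-49 (6.41) and msp-63 (1.40). msp-63, the member measured only here, had 0.07, 1.84 and 0.46 CPM in daf-2 nuclei, against 0.13, 0.07 and 0.07 CPM in WT nuclei, and 0.37, 0.34 and 0.34 CPM in daf-2 worms, against 1.15, 1.22 and 0.40 CPM in WT worms. Of these, 0.07 CPM is the floor of the table and stands for 0 reads, and daf-2 nuclei library 3 also had msp-49 and msp-64 at the floor. With 1 read worth 0.09 to 0.16 CPM in a nuclei library, the levels of msp-63 in nuclei other than 1.84 CPM are at most a few reads.

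Summed over the 31 genes, daf-2 nuclei had 572, 273 and 422 CPM, against 843, 565 and 467 CPM in WT nuclei. daf-2 worms had 458, 397 and 528 CPM, against 683, 816 and 436 CPM in WT worms. The ranges of daf-2 and WT overlap in nuclei and in worms.

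The daf-2 comparison asks how reduced insulin/IGF-1 signaling changes msp expression in young adults. In whole worms 3 of 31 msp genes fell in daf-2 and none rose (limma), where 18% of all genes tested passed in either direction and 11.2% were lower. The median log2 difference of the 31 was -0.51 against -0.02 over all genes tested, and 23 of 31 were lower. In germline nuclei 1 of 31 fell and none rose, where 3.85% of all genes tested passed and 2.5% were lower, with a median of -0.59 against -0.15 over all genes tested and 26 of 31 lower. The share of msp genes called is below the background in worms and near it in nuclei. Groups did not overlap and daf-2 was lower for 6 of 31 in worms, where 21.6% of all genes tested were, and for 8 of 31 in nuclei, where 14.9% were.

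msp-31 passed in both. It had 20.8, 15.7 and 20.8 CPM in daf-2 worms, against 58.4, 53.2 and 29.6 CPM in WT worms (log2 difference -1.25 ± 0.31 SE, adjusted p = 0.0224, limma). In nuclei it had 25.7, 22.3 and 27.7 CPM in daf-2, against 77.9, 60.4 and 49.2 CPM in WT (-1.29 ± 0.22 SE, adjusted p = 0.0359, limma). No daf-2 library reached any WT library in either material. The call in nuclei was lost whichever 1 of the 6 libraries was left out (adjusted p 0.0528 to 0.101, limma), and the call in worms in 3 of 6. The gene that holds it on the same strand, aagr-2, which is named as an acid alpha glucosidase relative, had 79.1, 98.7 and 88.8 CPM in daf-2 worms, against 85.4, 78.3 and 89.2 CPM in WT worms, with ranges that overlap.

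The pseudogene msp-71 had the largest difference in worms. It had 1.22, 1.02 and 1.26 CPM in daf-2 worms, against 9.50, 3.93 and 5.11 CPM in WT worms (-2.31 ± 0.42 SE, adjusted p = 0.00578, limma), and it passed with each library left out in turn. In nuclei it had 3.95, 4.89 and 7.48 CPM in daf-2, against 15.3, 11.03 and 12.1 CPM in WT, also without overlap, at -1.27 ± 0.40 (SE, adjusted p = 0.137, limma). msp-81 had 19.3, 17.1 and 24.2 CPM in daf-2 worms, against 52.6, 46.6 and 25.98 CPM in WT worms (-0.999 ± 0.31 SE, adjusted p = 0.0497, limma), and WT library 3 lies just above the highest daf-2 library. This call was lost in 5 of 6 fits with a library left out.

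Not every abundant member was lower. msp-19 had 25.6, 25.9 and 35.5 CPM in daf-2 worms, against 27.8, 40.2 and 19.1 CPM in WT worms, a log2 difference of 0.05 ± 0.32 (SE). By position, the 12 measured genes on chromosome II had a median of -0.68 in worms and -1.03 in nuclei, and the 19 on chromosome IV -0.31 in worms and -0.53 in nuclei. In worms the medians of the chromosome IV blocks that begin at 5055631 and at 9689015 were 0.02 and -0.54. These are descriptions with no test.

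**Figure D4:**
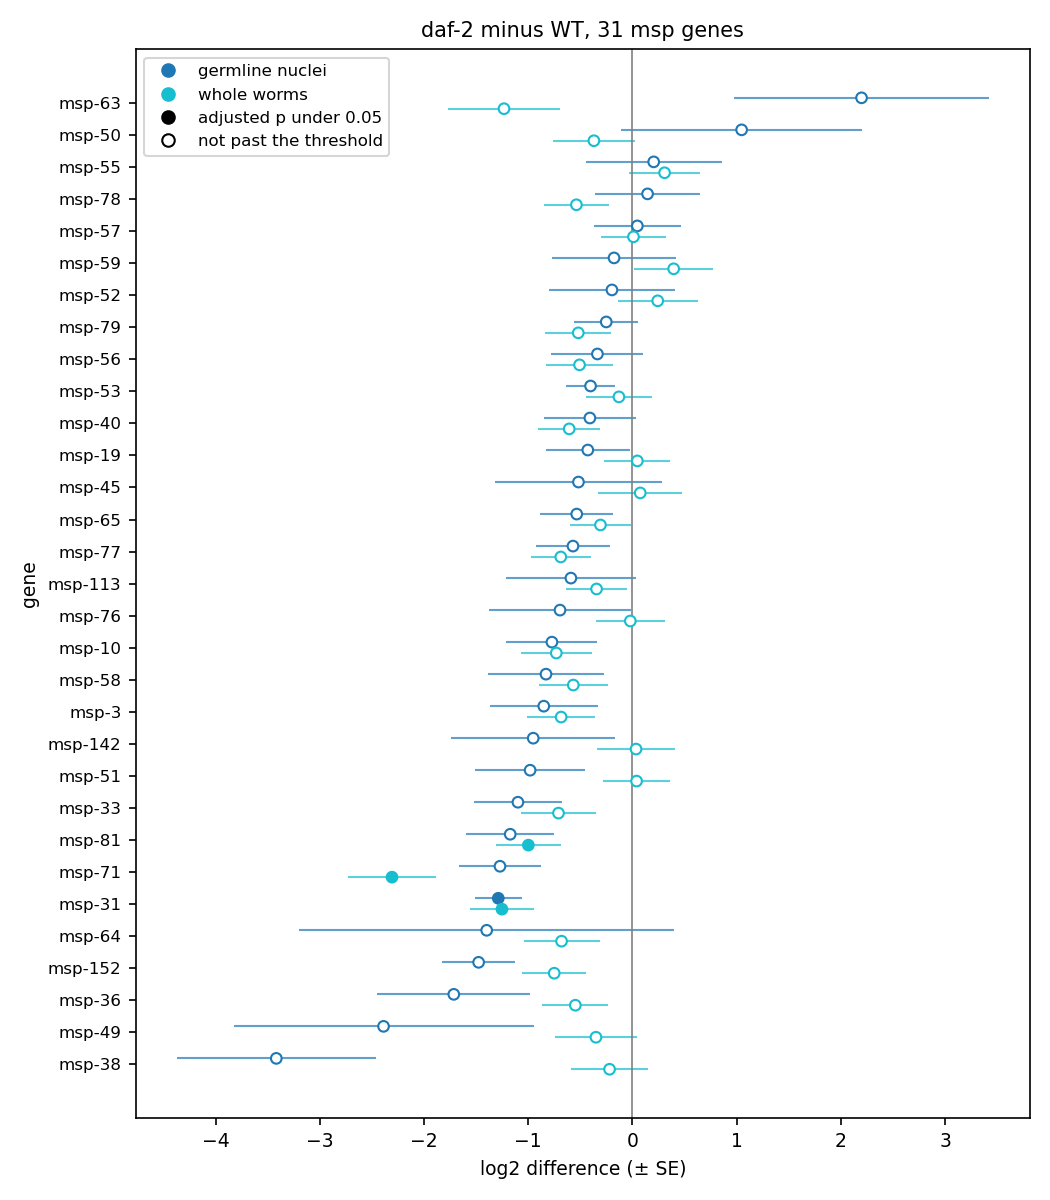
For 31 msp genes, ordered by the difference in nuclei, points show the log2 difference of daf-2 minus WT with its SE in germline nuclei and in whole worms, filled where the adjusted p was under 0.05. Most points lie below 0 (26 of 31 in nuclei and 23 of 31 in worms), and the filled ones are msp-31 in both materials and msp-71 and msp-81 in worms.

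Whether the daf-2 effect differed between nuclei and worms was tested as an interaction in all 12 libraries. No msp gene passed (limma), where 0.103% of all genes tested passed, and 2 msp genes, msp-38 and msp-63, had an unadjusted p under 0.05, against 12.2% of all genes tested. For the 2 most abundant members, msp-77 and msp-79, the daf-2 effect in nuclei minus that in worms was 0.12 ± 0.47 (SE) and 0.27 ± 0.46 (SE). For msp-38, with 0.38, 0.31 and 0.22 CPM in daf-2 nuclei, against 4.44, 5.07 and 1.43 CPM in WT nuclei, it was -3.20 ± 0.96 (SE, adjusted p = 0.1703, limma).

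Of 4 other sperm lists, 3 had negative medians in daf-2 against WT, as the msp genes did. The sperm fate and transcription list had positive medians, 0.47 in worms and 0.46 in nuclei, and 0 of its 18 genes passed in either (limma), with 3 at an unadjusted p under 0.05 in each. Of 22 genes for sperm activation and fertilization, 6 fell in worms and 2 in nuclei and none rose, with medians of -0.92 and -1.19. spe-11, a sperm protein that the embryo needs, had 57.2, 37.0 and 54.7 CPM in daf-2 worms, against 207, 101 and 92.1 CPM in WT worms (-1.35 ± 0.34 SE, adjusted p = 0.0241, limma). Of 15 ssp and msd genes, 2 fell in worms (ssp-34 and msd-4), with a median of -0.63. In nuclei msd-4 fell and ssp-36 rose, with a median of -0.69. Of 16 fibrous body and assembly genes, 1 rose and 1 fell in worms (spe-5 and spe-6), with a median of -0.57. In nuclei 1 rose (wee-1.3), with a median of -0.75.

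Markers of other cells moved with genotype as well. Of 17 oocyte genes 6 rose in daf-2 worms and 2 in daf-2 nuclei and none fell, with medians of 1.03 and 0.68. The summed oocyte list was 1115 to 2058 CPM in daf-2 worms, against 757 to 1196 CPM in WT worms, and 1413 to 2392 CPM in daf-2 nuclei, against 584 to 749 CPM in WT nuclei. Of 11 intestine and yolk genes 7 rose in daf-2 worms and 4 in daf-2 nuclei. Of 12 cuticle genes 3 fell in daf-2 worms, with a median of -2.23. Their part in the msp values was not tested.

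Nuclei were compared with whole worms of the same genotype to ask whether msp transcripts were found in the germline preparation. In daf-2, 7 of 31 msp genes were lower in nuclei and 1 was higher (limma), where 53.3% of all genes tested passed, 32% lower and 21.3% higher. In WT, 4 of 31 were lower and none higher, where 35.3% of all genes tested passed, 19.4% lower. The family median was -0.56 in daf-2 against -0.63 over all genes tested, and -0.33 in WT against -0.34 over all genes tested. Relative to all genes, the family thus did not stand apart in its median. On library sizes scaled to the total of the unlogged table, the median of all genes tested moved to -2.81 in daf-2 and -2.27 in WT, that of the msp genes to -2.73 and -2.26, and 29 and 30 of 31 msp genes were lower in nuclei. The direction of a change relative to all genes is what can be read here. Markers of somatic cells were not at 0 in nuclei, and the lists differed. The summed body wall muscle list was 1149 to 1290 CPM in daf-2 nuclei, against 2215 to 3035 CPM in daf-2 worms. Of the sum in daf-2 nuclei, lev-11 alone made up 574, 689 and 706 CPM. Of the 12 genes of the list, 9 were lower and 2 higher (lev-11 and tni-3) in daf-2 nuclei, and 10 were lower and none higher in WT nuclei. The list had a median log2 difference of -2.82 in daf-2 and -2.53 in WT. Of 11 intestine and yolk genes, 10 were lower in daf-2 nuclei and 9 in WT nuclei and none was higher, with medians of -3.57 and -2.44. The summed neuron list overlapped, at 78.2 to 110.8 CPM in daf-2 nuclei, against 81.7 to 101.7 CPM in daf-2 worms, and at 88.3 to 153.6 CPM in WT nuclei, against 81.5 to 139.005 CPM in WT worms.

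msp-36 and msp-59 were lower in nuclei of both genotypes. msp-36 had 5.37, 1.74 and 1.20 CPM in daf-2 nuclei, against 17.9, 13.6 and 19.1 CPM in daf-2 worms (log2 difference -2.90 ± 0.51 SE, adjusted p = 0.000359, limma). In WT it had 9.97, 6.13 and 6.48 CPM in nuclei, against 22.6, 36.1 and 17.9 CPM in worms (-1.73 ± 0.51 SE, adjusted p = 0.0178, limma). msp-59 had 7.44, 3.09 and 4.84 CPM in daf-2 nuclei, against 18.6, 19.8 and 28.6 CPM in daf-2 worms (-2.19 ± 0.48 SE, adjusted p = 0.00185, limma). In WT its difference was -1.62 ± 0.48 (SE, adjusted p = 0.0187, limma). No nuclei library of either gene reached a worm library of its genotype. Groups did not overlap for 11 members that were lower in daf-2 nuclei, where 36.5% of all genes tested were, and for 10 in WT, where 29.3% were. The WT call was lost in 3 of 6 fits with a library left out for msp-36 (adjusted p up to 0.0936, limma) and in 3 of 6 for msp-59 (up to 0.1096, limma).

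msp-38 had the largest fall in daf-2, with 0.38, 0.31 and 0.22 CPM in nuclei, against 6.66, 3.81 and 6.56 CPM in worms (-4.21 ± 0.68 SE, adjusted p = 0.000167, limma). Its opposite-strand partner dhs-12 had 3.27, 3.71 and 5.71 CPM in daf-2 nuclei, against 30.8, 19.7 and 17.9 CPM in daf-2 worms, so both genes of the pair were lower in nuclei. msp-142, msp-76, msp-49 and msp-51 were also lower in daf-2 nuclei, and msp-63 and msp-50 in WT nuclei, msp-63 with 2 of 3 nuclei libraries at the floor, so that its fitted difference is no measure of size.

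The pseudogene msp-71 went the other way, with 3.95, 4.89 and 7.48 CPM in daf-2 nuclei, against 1.22, 1.02 and 1.26 CPM in daf-2 worms (2.17 ± 0.50 SE, adjusted p = 0.00255, limma). In WT nuclei it had 15.3, 11.03 and 12.1 CPM, against 9.50, 3.93 and 5.11 CPM in WT worms, without overlap, where 22.3% of all genes tested were higher without overlap (1.14 ± 0.50 SE, adjusted p = 0.0940, limma). On library sizes scaled to the table total its difference in daf-2 was -0.0017, still far above the median of all genes tested on that scale. Among coding members, msp-78, msp-79 and msp-31 were higher in daf-2 nuclei without overlap, where 24.2% of all genes tested were, and none of the 3 passed. By position, the block of chromosome IV that begins at 9689015 and holds msp-78 and msp-79 had a median of 0.43 in daf-2 and 0.35 in WT, and that beginning at 5055631, with msp-19 and msp-59, had -0.87 and -0.50, as a description.

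**Figure D5:**
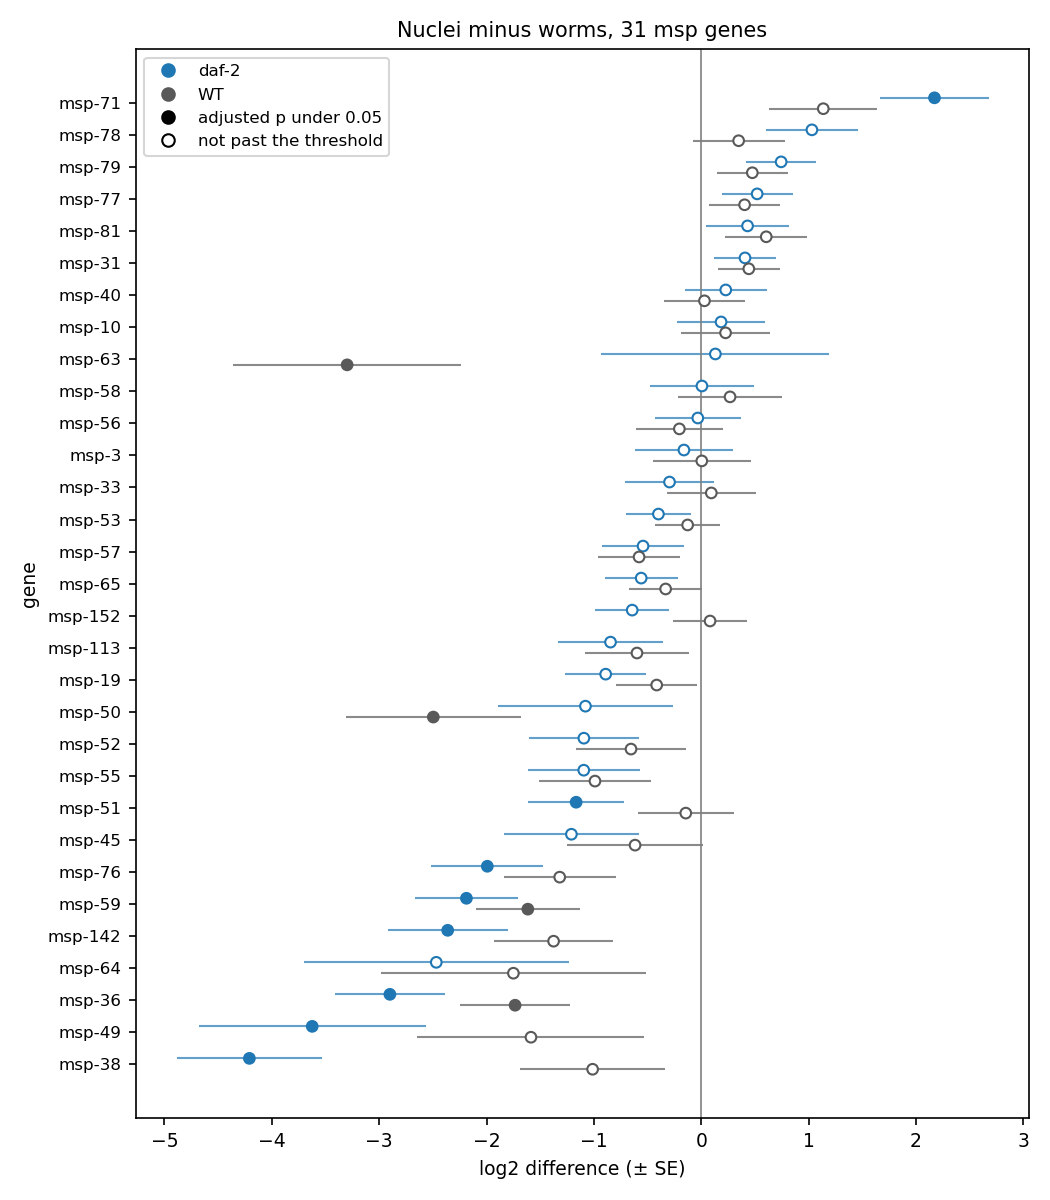
For 31 msp genes, ordered by the difference in daf-2, points show the log2 difference of germline nuclei minus whole worms with its SE in daf-2 and in WT, filled where the adjusted p was under 0.05. Members spread between -4.21 (msp-38) and 2.17 (msp-71) in daf-2, with 8 filled points there and 4 in WT.

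Sperm genes that are not msp genes spread in both directions between nuclei and worms. Of 22 genes for sperm activation and fertilization 8 were higher and 3 lower in daf-2 nuclei, and 8 higher and 2 lower in WT nuclei. spe-11 had 177, 113 and 163 CPM in daf-2 nuclei, against 57.2, 37.0 and 54.7 CPM in daf-2 worms (log2 difference 1.60 ± 0.31 SE, adjusted p = 0.000652, limma). Of 17 oocyte genes, 12 were lower in daf-2 nuclei and 8 in WT nuclei. Transcripts of sperm genes, the msp genes among them, were therefore measured in the nuclei libraries of both genotypes.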

How the data were processed

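The authors deposited log2 CPM for both tables, made with edgeR from paired-end reads that they aligned with STAR to WBcel235 (ce11) and counted with featureCounts, splitting multi-mapped and overlapping reads into fractions. Gene tables with the authors' own fold changes, F statistics, p-values and FDR were not used. Values were taken as deposited. A gene stayed in the tests if 25% or more of the 12 libraries reached 1 CPM, which left 12634 of 12958 genes in the auxin table and 13613 of 14206 in the nuclei table. The lowest values, -4.09 and -3.89 on the log2 scale, stand for 0 reads. Names and positions came from the Ensembl annotation and RefSeq names of the same build.

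Each gene was fitted with limma 3.58.1 in R 4.3.3 (lmFit, eBayes with trend), two-sided, with p-values adjusted by Benjamini-Hochberg over every gene tested and called under 0.05. The daf-2 comparisons used the 6 libraries of one material, all others the 12 of a table. The fit was tested on simulated data. Members and lists were chosen with earlier results of these data known. Named msp genes were the 5 highest and 3 lowest by mean log2 CPM per table and, per comparison, up to 5 past the threshold by adjusted p with all in the minority direction, or else the 2 highest. List genes were chosen likewise, up to 4. Library numbers were read as pairs where deviations from group means correlated above 0.1 in every pair. This held for auxin and EtOH at 16 h (0.121 to 0.624) and 88 h (0.274 to 0.664) and for WT nuclei and worms (0.113 to 0.138). Libraries of unequal number reached 0.182 at 16 h and 0.421 at 88 h. The daf-2 nuclei and worms fell short of it (0.0729 to 0.0966), although unequal numbers there had only -0.0552 to -0.0352. The study saved both nuclei and whole worm lysate when it isolated nuclei. In both genotypes all 3 nuclei libraries correlated best with the worm library of their own number. The main fits used no pairs, so the p-values of nuclei against worms leave such pairing out. Scalings, pseudocounts, filters, blocks and samples in the fit were varied. Python 3.11.15 was used.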

Additional observations from a re-analysis of the deposited data

How the results depend on the processing

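Fewer than 4 libraries a group, near-identical members and reads shared as fractions limit what these counts can show, and nuclei libraries give the lowest members few reads. The counts below stand without the share of all genes called in each fit. They show how the count depends on processing and are no result about msp genes alone. Both auxin comparisons and the interactions gave 0 msp genes under every alternative run. The 7 msp genes higher in EtOH 88 h than in EtOH 16 h animals became 29 with quantile scaling (median of all genes tested -0.12 in place of 0.03), 21 with a pseudocount of 0.1, 29 with a pseudocount of 2, 4 with a mean of at least 5 CPM and 0 with the fit limited to those 6 libraries. The replicate block gave 30, but the numbers do not pair these groups by the rule above (0.0474 to 0.427). In alternatives chosen after seeing the data, it was 21 when scaled to the table total and 0 with both 16 h libraries of number 2 left out or both 88 h libraries of number 1 left out. With 1 library left out it ranged from 0 to 30.

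For daf-2 against WT, the 3 in worms became 1 when scaled to the table total, with 1 to 4 under leaving out a library. The 1 in nuclei became 3 with quantile scaling, 2 with a mean of at least 5 CPM, 0 with the replicate block, 4 with all 12 libraries and 0 when scaled to the table total, and 0 with any library left out. For nuclei against worms, the 4 in WT became 8 with a pseudocount of 2 and 30 when scaled to the table total, with 0 to 5 under leaving out a library, which was 0 without WT nuclei library 2 or 3 or WT worm library 2. The 8 in daf-2 became 29 when scaled to the table total, with 7 to 13 under leaving out a library. Scaling to the table total also moved the median of all genes tested far down in nuclei, as given above. The counts of 30 and 29 are thus not particular to msp genes. For auxin against EtOH at both times and WT nuclei against worms, whose numbers met the pairing rule, the replicate block grouped all 12 libraries by number. It thus joined 16 h with 88 h libraries, or daf-2 with WT libraries, and is not a fit of the pairs. It changed no count of msp genes in these comparisons by over 1.5 times, with 0, 0 and 4 called.

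Signs turned only in small differences that passed no test, apart from msp-71 in daf-2 nuclei against worms, which was -0.0017 when scaled to the table total. On that scale the median of all genes tested lay far below it. The daf-2 effect in nuclei minus worms for msp-77 was -0.13 when scaled to the table total and -0.12 to 0.42 with a library left out. At 16 h, auxin against EtOH was -1.14 to 0.38 for msp-19 and -1.12 to 0.39 for msp-59 with a library left out. The auxin effect at 88 h minus 16 h was -0.97 to 0.54 for msp-19 and -1.04 to 0.47 for msp-59 in the same fits, and 0.093 for msp-19 and 0.039 for msp-59 with both 16 h libraries of number 2 left out. The cause of these shifts was not tested.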
